A study of Mus musculus with 16 samples.

Results

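The carbonic anhydrases are a family of zinc enzymes, described here by the mRNA levels of 8 members (Car14, Car4, Car9, Car2, Car3, Car13, Car8 and Car5b) among the 15350 genes measured in mouse brown adipose tissue. The set was chosen by gene family together with 1 observed pattern: Car14 was far lower after isoproterenol in Ucp1-knockout tissue and higher after it in wild-type tissue. All 8 members were found, so the isoproterenol values of Car14 are given as a description with no test, and the counts of members in those comparisons cover the 7 others. Interscapular brown fat of C57BL/6J mice was profiled by mRNA sequencing in 4 groups of 4 libraries. The first group was Ucp1-knockout mice (KO) whose minipump delivered isoproterenol at 60 mg per kg per day, and the second was KO mice whose minipump delivered saline. The third was wild-type mice (WT) given the same isoproterenol dose, and the fourth was WT mice given saline. All tissues were taken after 3 days, and all mice, controls included, carried a pump. Isoproterenol is an agonist of beta-adrenergic receptors, and Ucp1 encodes the mitochondrial uncoupling protein of brown fat. The labels do not give age, sex or the construction of the Ucp1 allele. They also do not say whether each library is 1 animal, so the p-values measure the spread between these libraries.

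Carbonic anhydrases interconvert carbon dioxide and bicarbonate, releasing or taking up a proton. The isoforms differ mainly in where they act: Car4, Car9 and Car14 are membrane enzymes whose active site faces outward, Car2, Car3 and Car13 are cytosolic, Car5b is mitochondrial, and Car8 is a related cytosolic protein without the enzyme activity. In fat cells, the bicarbonate they supply is the substrate of carboxylases of fatty acid synthesis, and Car3 is known as one of the most abundant proteins of rodent adipocytes.

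The promoters of 4 of the 8 members (Car14, Car9, Car4 and Car5b) were in the RefSeq table for GRCm38.p6. They are shown because those of the other members were not in it. Each window runs from 250 bases before the annotated start to 50 after it, 5′ to 3′ on the gene's strand, and capitals mark ACGTG, the core of the hypoxia response element, read on either strand. The windows are chr3:95904636-95904935 on the minus strand for Car14, chr4:43506776-43507075 on the plus strand for Car9, chr11:84957504-84957803 on the plus strand for Car4 and chrX:164027961-164028260 on the minus strand for Car5b.
Car14: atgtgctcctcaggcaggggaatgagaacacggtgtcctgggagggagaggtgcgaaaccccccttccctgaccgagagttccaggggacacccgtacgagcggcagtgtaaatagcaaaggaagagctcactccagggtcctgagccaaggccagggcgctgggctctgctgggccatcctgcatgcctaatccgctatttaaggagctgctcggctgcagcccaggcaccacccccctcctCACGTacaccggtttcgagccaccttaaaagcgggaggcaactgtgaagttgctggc
Car9: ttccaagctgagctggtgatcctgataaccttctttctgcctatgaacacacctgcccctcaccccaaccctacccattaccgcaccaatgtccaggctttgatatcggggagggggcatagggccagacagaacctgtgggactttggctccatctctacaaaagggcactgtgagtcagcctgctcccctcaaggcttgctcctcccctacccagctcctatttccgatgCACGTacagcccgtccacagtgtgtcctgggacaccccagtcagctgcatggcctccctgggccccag
Car4: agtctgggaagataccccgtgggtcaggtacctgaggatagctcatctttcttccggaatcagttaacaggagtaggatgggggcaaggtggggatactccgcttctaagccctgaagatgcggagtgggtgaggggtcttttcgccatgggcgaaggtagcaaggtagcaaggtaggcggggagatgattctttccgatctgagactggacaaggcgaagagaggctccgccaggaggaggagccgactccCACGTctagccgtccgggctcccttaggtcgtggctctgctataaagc
Car5b: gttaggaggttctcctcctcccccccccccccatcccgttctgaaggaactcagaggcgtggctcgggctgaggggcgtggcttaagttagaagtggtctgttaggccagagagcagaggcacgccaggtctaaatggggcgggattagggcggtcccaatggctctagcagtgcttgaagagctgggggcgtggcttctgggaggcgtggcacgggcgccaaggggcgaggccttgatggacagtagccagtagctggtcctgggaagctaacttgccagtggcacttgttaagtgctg

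The 5-letter core occurred once each in the Car14, Car9 and Car4 windows, in all 3 on the reverse strand, so the printed letters are CACGT. Its first printed base lay 7 bases before the start of Car14, 18 bases before that of Car9 and 2 bases after that of Car4. Of 32851 mouse promoter windows of the same length, 19.6% held the core. The Car5b window had no match. The AP-1 site TGAGTCA was found in the Car9 window, 77 bases before the start, and in 5.20% of all windows. The CCAAT box was found in the Car9 and Car5b windows and in 37.4% of all windows. The cAMP response half-site TGACG and the nuclear receptor half-site AGGTCA, searched on both strands, were in none of the 4 windows and in 20.8% and 16.3% of all windows. No searched motif overlapped another in these windows. Among the 8 genes, Car13, Car3 and Car2 lie next to each other on chromosome 3, with Car1 between Car13 and Car3. Car14 is elsewhere on chromosome 3, Car8 and Car9 are on chromosome 4, Car4 is on chromosome 11 and Car5b is on the X chromosome.

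Depth ranged from 9004515 to 20986735 reads per library, and 1 read was worth 0.0476 to 0.115 CPM, the reads on a gene scaled to a common library size of 1000000 reads. Levels below are the deposited values returned to CPM, in which 0.5 read had been added to each count. Ucp1 itself was at 19.0 to 2129 CPM in KO isoproterenol and 410 to 1156 CPM in KO saline libraries, against 8905 to 18458 CPM in WT isoproterenol and 2298 to 3449 CPM in WT saline libraries. Reads on Ucp1 therefore remained in KO tissue, and no label describes the extent of the deletion. The KO isoproterenol libraries resembled each other least, with Pearson r over genes of 0.852 to 0.957 within the group, against 0.949 to 0.985 within the other 3 groups. KO isoproterenol replicate 1 stood apart. The summed level of 8 pan-adipocyte markers was 4143 CPM in it, against 13316, 21001 and 39397 CPM in KO isoproterenol replicates 2, 3 and 4, while the KO saline libraries held 23037 to 24121 CPM. The summed level of 8 macrophage markers was 7447 CPM in it, against 1869, 3991 and 833 CPM in the other 3, and the KO saline libraries held 281 to 519 CPM. Of 8 macrophage markers, 8 rose with isoproterenol in KO tissue, where 23.8% of all genes were called higher. Of 8 pan-adipocyte markers 5 fell, where 24.8% of all genes were called lower. Both counts were the same without replicate 1. Brown adipocyte markers, all 8 of which were measured, summed to 127 to 8276 CPM in KO isoproterenol and 6191 to 6544 CPM in KO saline libraries, against 14444 to 26428 CPM in WT isoproterenol and 6641 to 8978 CPM in WT saline libraries. Ucp1, the gene knocked out, is 1 of these 8, and its levels above are part of each sum. In limma 4 of the 8 fell in KO tissue, where 24.8% of all genes were called lower. Elovl3 alone rose in WT tissue, where 7.6% of all genes were called higher. Without KO isoproterenol replicate 1, 4 fell and 1 rose in KO tissue, and 3 rose in WT tissue. All genes called in either direction were then 45.3% and 23.7%. Results that rest on KO isoproterenol replicate 1 are given with and without it. In whole tissue, fewer cells of a type and less RNA per cell cannot be told apart.

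The membrane enzyme Car14 (ENSMUSG00000038526) was close to the detection limit in KO tissue after isoproterenol and was a mid-range member of the family elsewhere. In KO isoproterenol libraries it was at 0.166, 0.772, 0.496 and 0.426 CPM, from 3, 12, 9 and 8 reads, against 25.1, 29.4, 17.96 and 37.9 CPM in KO saline libraries. In WT isoproterenol libraries it was at 59.1, 45.8, 57.5 and 104 CPM, against 21.2, 40.1, 23.1 and 20.05 CPM in WT saline libraries. All 4 KO isoproterenol libraries lay below all KO saline libraries, and all 4 WT isoproterenol libraries lay above all WT saline libraries. On the log2 scale the difference between isoproterenol and saline was -6.03 in KO tissue, 65.6-fold lower, and 1.34 in WT tissue, 2.53-fold higher. Leaving out KO isoproterenol replicate 1, where Car14 had its 3 reads, the KO difference was -5.61. Under isoproterenol KO was below WT by a log2 difference of -7.29. These isoproterenol differences chose the gene and carry no test. Under saline, which the choice did not use, KO averaged 27.6 ± 8.32 CPM and WT 26.1 ± 9.42 CPM (SD, n = 4 each). That difference was 0.09 on the log2 scale (SE 0.40, 95% interval -0.76 to 0.94, limma adjusted p = 0.996), and the libraries overlapped.

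**Figure D1:**
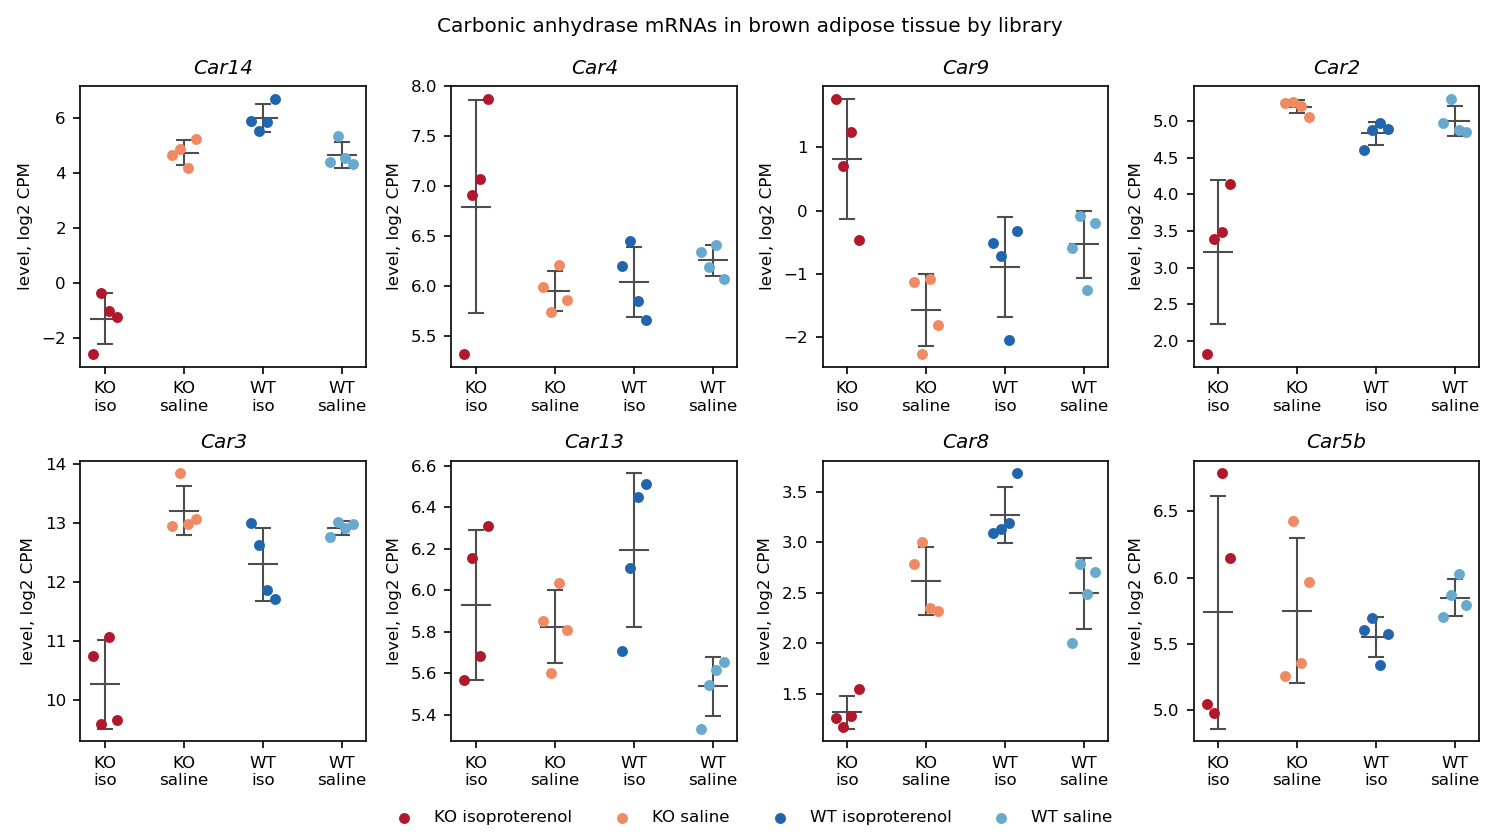
Levels of the 8 members on the log2 CPM scale, 1 point per library and 1 panel per gene with its own axis; bars give the group mean and SD over 4 libraries. Car14 in KO isoproterenol lies apart below every other library, Car9 in KO isoproterenol lies above KO saline, and Car3, Car2 and Car8 in KO isoproterenol lie below KO saline.

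Car14 was lowest in KO isoproterenol replicate 1, where the pan-adipocyte sum was lowest too, and was at 0.426 CPM in replicate 4, where that sum was highest. Fabp4, a fatty acid binding protein gene, made up 67.2% of the sum in replicate 4, and without it the sum there was 12921 CPM, within the 12468 to 14553 CPM of the KO saline libraries. One by one, 3 of the 8 markers (Adipoq, Plin1 and Cebpa) lay below every KO saline library in replicate 4, 5 did in replicate 3, and all 8 did in replicates 1 and 2. The part of adipocytes in the Car14 values was not tested. Among the other lists, Schwann cell and nerve markers summed to 93.7 to 141 CPM in KO isoproterenol and 160 to 252 CPM in KO saline libraries, against 307 to 378 CPM in WT isoproterenol and 138 to 218 CPM in WT saline libraries. Within that list S100b fell and Tubb3 rose in KO tissue after isoproterenol, so the list did not move as 1. None of the 6 epithelium markers was among the genes measured. Exons of Car14 overlap those of Aph1a, a gamma-secretase subunit gene on the opposite strand, whose level was 23.3 ± 2.52 CPM in KO isoproterenol and 37.9 ± 2.48 CPM in KO saline libraries, against 39.3 ± 3.78 CPM in WT isoproterenol and 38.5 ± 3.86 CPM in WT saline libraries (SD, n = 4 each). The strand setting of the counting is not given in the sources used here, so the part of reads from Aph1a in the Car14 values, or the reverse, was not tested.

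Over the 14271 genes with a mean of at least 1 CPM, the 5 whose profile over the 16 libraries lay nearest to that of Car14 were Ptgds, Fcrls, Slc22a2, Gm49544 and Sec14l4. Likeness was the root-mean-square difference in log2 CPM with each gene's own mean subtracted, and the distances were 1.05, 1.15, 1.15, 1.16 and 1.17. They compare with an SD of 2.98 for Car14 itself. Ptgds, a prostaglandin D synthase, averaged 1.15 ± 1.11 CPM in KO isoproterenol and 29.0 ± 22.9 CPM in KO saline libraries, against 35.9 ± 8.40 CPM in WT isoproterenol and 17.5 ± 3.79 CPM in WT saline libraries (SD, n = 4 each). Slc22a2, an organic cation transporter, averaged 0.314 ± 0.151 CPM in KO isoproterenol and 5.54 ± 0.937 CPM in KO saline libraries, against 6.05 ± 1.12 CPM in WT isoproterenol and 5.65 ± 1.71 CPM in WT saline libraries (SD, n = 4 each). Sec14l4, of the SEC14-like lipid-binding family, averaged 2.32 ± 1.57 CPM in KO isoproterenol and 32.7 ± 11.8 CPM in KO saline libraries. Each of the 5 was at its lowest in the KO isoproterenol group, which follows from choosing them by likeness to Car14 over these same libraries. In that group Car14 was lowest in replicate 1, as were Ptgds, Gm49544, Slc22a2 and Sec14l4, while Fcrls was lowest in replicate 4. Several of these ranks rest on few reads. In replicate 1, where 1 read was worth 0.0476 CPM, Ptgds was at 0.0714 and Gm49544 at 0.0238 CPM. Slc22a2 was at 0.166 CPM there and 0.216 CPM in replicate 2. Fcrls was at 0.226 CPM in replicate 4 and 0.278 CPM in replicate 2. The order of libraries at such levels is limited by depth.

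**Figure D2:**
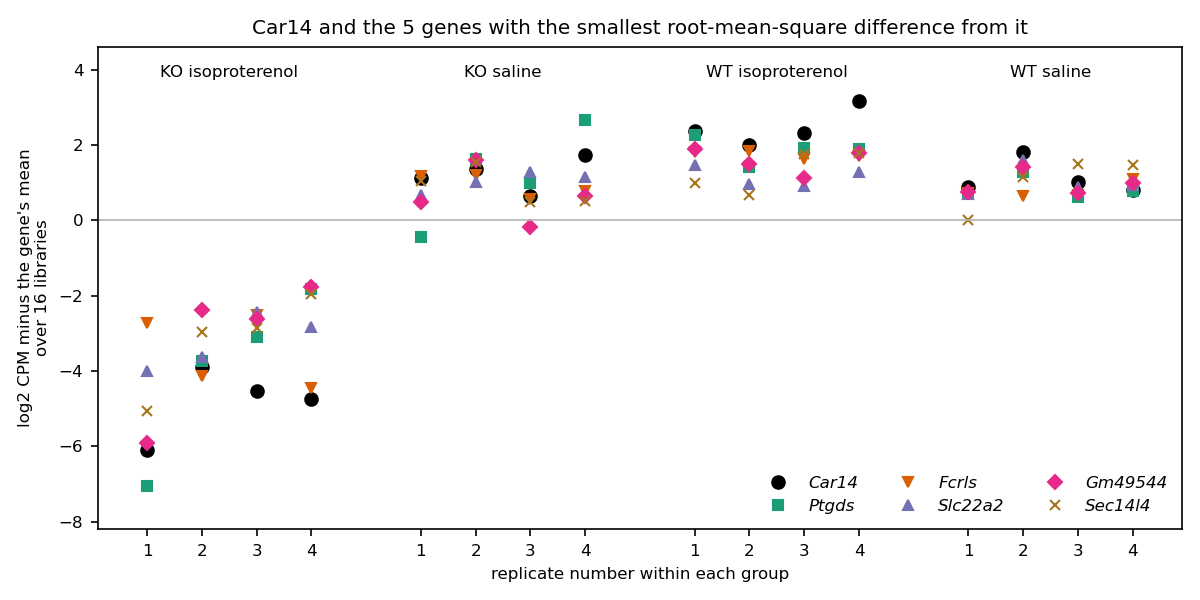
Car14 and the 5 genes nearest to it, each as log2 CPM minus the gene's own mean over 16 libraries, by replicate number within the 4 groups. All 6 genes lie below 0 in the 4 KO isoproterenol libraries, which follows from the choice by likeness, and Car14 has the highest points in the WT isoproterenol group.

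The glycosylphosphatidylinositol-anchored enzyme Car4 (ENSMUSG00000000805), known from capillary endothelium and epithelium, was the second most abundant member per kilobase in all 4 groups, overlapping Car13 in 3 of them. It was at 40.0, 120.3, 135 and 235 CPM in KO isoproterenol libraries, against 63.6, 53.4, 74.3 and 58.1 CPM in KO saline libraries. Replicate 1 lay below every KO saline library and the other 3 KO isoproterenol libraries lay above all of them. With all libraries the KO difference of 0.84 did not pass the test (SE 0.37, limma adjusted p = 0.0698). Without KO isoproterenol replicate 1 it was 1.34 and did pass (limma adjusted p = 1.99e-04), and with library totals in place of the authors' scaling it was 1.03 and passed (limma adjusted p = 0.0251). In WT libraries Car4 was at 73.8, 87.5, 57.9 and 50.5 CPM with isoproterenol, against 81.2, 73.2, 85.5 and 67.5 CPM with saline, a difference of -0.21 that did not pass (SE 0.37, 95% interval -0.998 to 0.569, limma adjusted p = 0.741). In KO isoproterenol libraries, Car4 had the same order as the pan-adipocyte sum, lowest in replicate 1 and highest in replicate 4. That order is not particular to adipocyte markers. The summed bicarbonate transporters, proton and lactate exporters, bicarbonate-using enzymes and hypoxia-induced genes described below had it too. The hypoxia-induced genes summed to 1346, 1802, 2478 and 3201 CPM in replicates 1, 2, 3 and 4. Endothelium markers summed to 1747 to 1988 CPM in KO isoproterenol and 1201 to 1748 CPM in KO saline libraries. Of these 8 markers 4 rose (Pecam1, Tek, Emcn and Esam), where 23.8% of all genes were called higher. Without replicate 1 the counts were 3 higher and 1 lower. The part of adipocytes or endothelium in the Car4 values was not tested. Under isoproterenol KO was above WT by 0.75 with all libraries (limma adjusted p = 0.108), and leaving out KO replicate 1 made it 1.24 (limma adjusted p = 4.52e-04). The difference between the responses was 1.06 with all libraries (limma adjusted p = 0.146) and 1.55 in that smaller fit (limma adjusted p = 0.00266).

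The transmembrane enzyme Car9 (ENSMUSG00000028463), a textbook target of the hypoxia-inducible factors, was the least abundant member in 3 of the 4 groups and was higher in KO tissue after isoproterenol. It was at 3.401, 1.64, 2.38 and 0.727 CPM in KO isoproterenol libraries, from 71, 26, 45 and 14 reads, against 0.460, 0.208, 0.472 and 0.287 CPM in KO saline libraries, from 6, 2, 6 and 2 reads. The groups did not overlap, and Car9 rose by 2.38 on the log2 scale (SE 0.51, 95% interval 1.29 to 3.47, limma adjusted p = 0.00151), or by 2.07 without KO isoproterenol replicate 1 (limma adjusted p = 0.00501). In WT libraries it was at 0.705, 0.611, 0.241 and 0.805 CPM with isoproterenol, against 0.661, 0.948, 0.419 and 0.872 CPM with saline, and the difference of -0.36 did not pass (SE 0.51, limma adjusted p = 0.680). The response differed between genotypes by 2.75 (KO minus WT, SE 0.72, limma adjusted p = 0.0151). Under isoproterenol KO was above WT by 1.71 (limma adjusted p = 0.0136), but KO replicate 4 lay within the WT range, and the call was lost without WT isoproterenol replicate 3 (1.33, limma adjusted p = 0.0503) and in a fit of the 8 libraries alone (limma adjusted p = 0.0504). In KO isoproterenol libraries Car9 had the same order as the macrophage sum, with replicate 1 highest, then 3, 2 and 4. The part of macrophages in the Car9 values was not tested. The antisense gene Gm12454, not analysed here, overlaps exons of Car9. The 2 genes nearest to Car9 over the 16 libraries, by the measure used for Car14, were Lxn, a carboxypeptidase inhibitor, at 0.52, and Coro1c, an actin-binding coronin, at 0.54. Lxn averaged 9.43 ± 4.73 CPM in KO isoproterenol and 2.65 ± 0.651 CPM in KO saline libraries, against 3.90 ± 0.956 CPM in WT isoproterenol and 3.13 ± 0.343 CPM in WT saline libraries (SD, n = 4 each).

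Of the cytosolic enzymes, Car3 and Car2 fell in KO tissue after isoproterenol and Car13 did not pass the test there. Car3 (ENSMUSG00000027559), a low-activity isoform of adipocytes and slow muscle, was at 1709.8, 770.1, 2153 and 813 CPM in KO isoproterenol libraries, against 7945, 14642, 8114 and 8532 CPM in KO saline libraries. The groups did not overlap and Car3 was 7.69-fold lower, a log2 difference of -2.94 (SE 0.41, 95% interval -3.81 to -2.07, limma adjusted p = 5.37e-05), or -3.10 without KO isoproterenol replicate 1. In WT libraries it was at 8225, 6348, 3749 and 3341 CPM with isoproterenol, against 6914, 8271, 7704 and 8097 CPM with saline. Replicate 1 lay within the WT saline range and the other 3 below it, and the difference of -0.61 did not pass (SE 0.41, limma adjusted p = 0.340). The KO response was below the WT response by a log2 difference of -2.33 (SE 0.58, limma adjusted p = 0.0112). Skeletal muscle markers, which varied from library to library, summed to 14.5, 736, 606 and 81.8 CPM in KO isoproterenol and 12.7, 802, 819 and 6.9 CPM in KO saline libraries. With the mean level of these markers as a covariate, the KO difference of Car3 was -2.93 (limma adjusted p = 1.06e-04). The list held no marker particular to slow muscle, so the part of slow muscle in the Car3 values was not tested. The 2 genes nearest to Car3 in profile were Hnmt, a histamine methyltransferase, at 0.42, and Mettl24, a methyltransferase-like gene, at 0.45. Hnmt averaged 6.82 ± 2.52 CPM in KO isoproterenol and 37.6 ± 6.86 CPM in KO saline libraries, against 20.05 ± 3.11 CPM in WT isoproterenol and 40.0 ± 7.81 CPM in WT saline libraries (SD, n = 4 each).

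Car2 (ENSMUSG00000027562), the widespread high-activity cytosolic isoform, was at 3.54, 10.5, 11.2 and 17.7 CPM in KO isoproterenol libraries, against 38.0, 38.4, 37.0 and 33.4 CPM in KO saline libraries. It fell by 1.98 on the log2 scale without overlap (SE 0.33, limma adjusted p = 2.16e-04), or by 1.52 without KO isoproterenol replicate 1 (limma adjusted p = 6.47e-06). In WT libraries it was at 24.4, 29.4, 31.3 and 29.7 CPM with isoproterenol, against 31.3, 39.5, 29.5 and 28.9 CPM with saline, and the difference of -0.17 did not pass (limma adjusted p = 0.775). The difference between the responses was -1.82 (SE 0.46, limma adjusted p = 0.0132). Like Car4, Car2 had the order of the pan-adipocyte sum in KO isoproterenol libraries, with or without Fabp4 in that sum. The other sums named for Car4 shared that order, and the part of adipocytes in the Car2 values was not tested. Red cells also carry Car2, and the erythrocyte markers summed to 84.0 to 150.4 CPM in KO isoproterenol and 232 to 391 CPM in KO saline libraries. All 6 erythrocyte markers measured fell in KO tissue, where 24.8% of all genes were called lower. The part of red cells in the Car2 values was not tested.

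Car13 (ENSMUSG00000027555), a cytosolic isoform, was at 47.4, 71.3, 51.4 and 79.3 CPM in KO isoproterenol libraries, against 57.8, 48.6, 65.6 and 56.1 CPM in KO saline libraries, with overlap and a difference of 0.10 (SE 0.19, 95% interval -0.30 to 0.51, limma adjusted p = 0.679). In WT libraries it was at 52.3, 68.8, 87.4 and 91.1 CPM with isoproterenol, against 40.3, 46.6, 49.1 and 50.4 CPM with saline. There the groups did not overlap and Car13 rose by 0.66 (SE 0.19, limma adjusted p = 0.0282). This call was lost in 6 of the fits that left out 1 WT library (WT isoproterenol replicates 2, 3 or 4, or WT saline replicates 1, 2 or 3), with limma adjusted p up to 0.0927. The responses of the genotypes differed by -0.55, which did not pass (SE 0.27, limma adjusted p = 0.141). The neighbours of Car13 on chromosome 3 did not share its values: Car3 and Car2 fell in KO tissue, and neither passed the test in WT tissue.

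Car8 (ENSMUSG00000041261), the related protein without carbonic anhydrase activity, which in neurons binds the inositol trisphosphate receptor, fell with isoproterenol in KO tissue and rose in WT tissue. It was at 2.40, 2.26, 2.43 and 2.93 CPM in KO isoproterenol libraries, against 6.91, 8.04, 5.12 and 4.997 CPM in KO saline libraries, and fell by 1.30 on the log2 scale (SE 0.22, limma adjusted p = 2.42e-04). It was at 8.51, 8.76, 9.14 and 12.8 CPM in WT isoproterenol libraries, against 4.01, 6.91, 5.63 and 6.52 CPM in WT saline libraries, and rose by 0.78 (SE 0.22, limma adjusted p = 0.0249). Neither pair of groups overlapped. The difference between the responses was -2.08 (SE 0.31, 95% interval -2.74 to -1.42, limma adjusted p = 9.05e-04), and it was -2.06 without KO isoproterenol replicate 1. The rise in WT tissue was lost without WT isoproterenol replicate 4 (limma adjusted p = 0.0868), WT saline replicate 1 (limma adjusted p = 0.0787) or WT saline replicate 3 (limma adjusted p = 0.0574). Depth was 36 to 58 reads per KO isoproterenol library and 90 to 183 per WT isoproterenol library.

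The mitochondrial enzyme Car5b (ENSMUSG00000031373), which supplies bicarbonate to carboxylation inside the organelle, passed no test in any comparison. It was at 33.1, 31.6, 110.1 and 70.8 CPM in KO isoproterenol libraries, against 38.4, 85.9, 40.9 and 62.4 CPM in KO saline libraries. The difference was -0.01 (SE 0.34, 95% interval -0.73 to 0.71, limma adjusted p = 0.982), so changes within that interval in either direction were not excluded here. In WT libraries it was at 48.6, 51.7, 40.6 and 47.6 CPM with isoproterenol, against 52.0, 58.6, 65.2 and 55.4 CPM with saline. Every WT isoproterenol library lay below every WT saline library, but the difference of -0.29 did not pass (SE 0.34, limma adjusted p = 0.602). That SE is shared by all groups, the more variable KO libraries included. Over all alternatives run, the limma adjusted p of this difference was at lowest 0.0539. In KO tissue the spread between libraries was larger than in WT tissue, at 61.4 ± 37.2 CPM with isoproterenol and 56.9 ± 22.1 CPM with saline, against 47.1 ± 4.69 CPM with isoproterenol and 57.8 ± 5.61 CPM with saline in WT tissue (SD, n = 4 each).

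**Figure D3:**
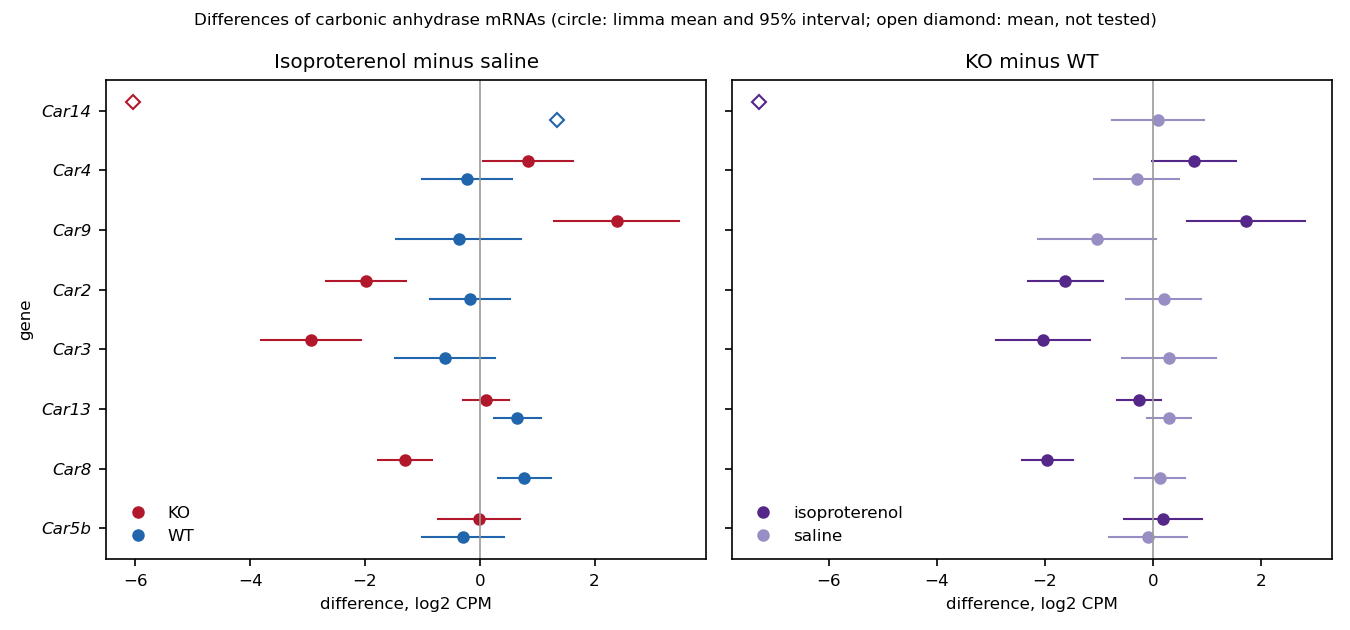
Differences of the 8 members in log2 CPM, isoproterenol minus saline in KO and WT (left) and KO minus WT under isoproterenol and saline (right), with the limma mean and 95% interval over 4 libraries per group; open diamonds are Car14 values that were not tested. In KO tissue Car2, Car3 and Car8 lie below 0 and Car9 above it, and under saline the 8 intervals include 0.

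Counted over the 7 members other than Car14, isoproterenol in KO tissue gave 1 higher (Car9) and 3 lower (Car2, Car3 and Car8), where 23.8% of all genes were called higher, 24.8% lower and 48.6% in either direction. The 4 calls became 5, with Car4, without KO isoproterenol replicate 1. Their median difference was -0.01, and that of all genes was -0.0021. In WT tissue 2 of the 7 were higher (Car8 and Car13) and 0 lower, where 7.6% of all genes were called higher, 8.98% lower and 16.6% in either direction, with a median of -0.21 for the 7 and -0.02 for all genes. KO against WT under isoproterenol gave 1 higher and 3 lower, the same 4 genes as in KO tissue, where 21.6% of all genes were called higher, 23.1% lower and 44.6% in either direction. The difference between the responses passed for the same 4 genes, again 1 higher and 3 lower, where 10.9% of all genes were called higher, 13.8% lower and 24.7% in either direction. In both of these comparisons the 4 calls likewise became 5, with Car4, when KO isoproterenol replicate 1 was left out. Under saline 0 of 8 members passed in limma, where 0.0717% of all genes were called higher, 0.0261% lower and 0.0977% in either direction, and 0 of 8 had an unadjusted p under 0.05. The largest of the 8 saline differences was that of Car9, at -1.03 (SE 0.51, limma adjusted p = 0.748), from 2 to 10 reads per library. The comparisons share libraries, so the recurrence of the same genes is not separate evidence. Beside shares of 48.6% and 44.6% of all genes, 4 calls among 7 members in these comparisons show nothing particular to the family.

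Per kilobase of exon, which allows members to be compared, Car3 made up nearly the whole family. In WT saline libraries the order was Car3 at 2704 CPM per kb, Car4 at 39.1, Car13 at 20.3, Car2 at 13.3, Car14 at 10.3, Car5b at 9.09, Car8 at 1.497 and Car9 at 0.315 CPM per kb. Car2 and Car14, and Car14 and Car5b, overlapped between libraries, and the other neighbours in that order did not. In KO isoproterenol libraries the order was Car3 at 475 CPM per kb, Car4 at 67.4, Car13 at 27.1, Car5b at 9.66, Car2 at 4.43, Car9 at 0.884, Car8 at 0.650 and Car14 at 0.183 CPM per kb. Car4 overlapped Car13 there, and Car5b, Car2, Car9 and Car8 each overlapped the next, while Car14 came last, below Car8 without overlap. In KO saline libraries the order was that of the WT saline group, from Car3 at 3423 CPM per kb to Car9 at 0.155 CPM per kb, with Car14 the fifth at 10.8 CPM per kb, overlapping Car2 and Car5b. In WT isoproterenol libraries Car14 was the fourth at 26.1 CPM per kb, overlapping Car13 above it and not Car2 below it. The sum over the 8 members was 372 to 866 CPM per kb in KO isoproterenol and 2864 to 5202 CPM per kb in KO saline libraries, against 1296 to 2975 CPM per kb in WT isoproterenol and 2503 to 2988 CPM per kb in WT saline libraries. Car3 held 62.1% to 92.3% of that sum in KO isoproterenol and 96.7% to 98.2% in KO saline libraries, against 90.0% to 96.5% for WT isoproterenol and 96.4% to 97.0% for WT saline. Without Car3 the sum averaged 110.3 ± 50.7 CPM per kb in KO isoproterenol and 93.3 ± 2.55 CPM per kb in KO saline libraries, against 115 ± 10.7 CPM per kb in WT isoproterenol and 93.9 ± 6.73 CPM per kb in WT saline libraries (SD, n = 4 each).

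**Figure D4:**
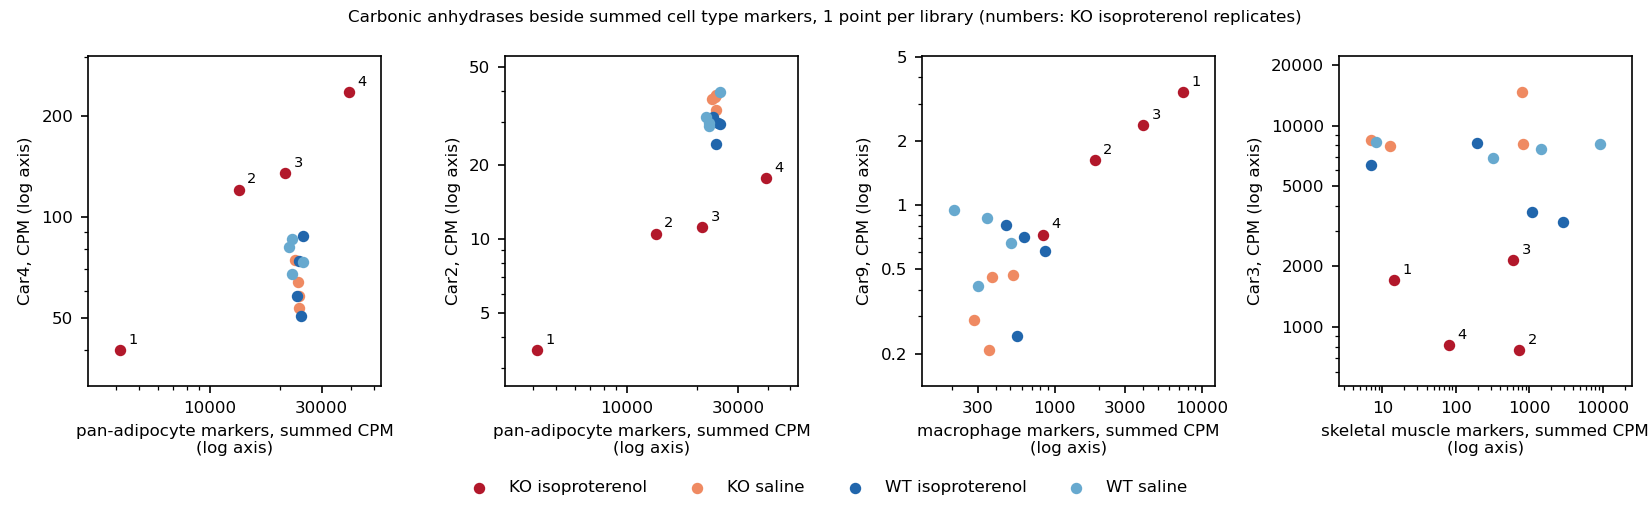
Levels of Car4, Car2, Car9 and Car3 in CPM against the summed CPM of pan-adipocyte, macrophage or skeletal muscle markers, 1 point per library on log axes, with KO isoproterenol replicates numbered. In that group Car4 and Car2 have the order of the adipocyte sum, which sums of other gene lists share. Car9 has that of the macrophage sum, while Car3 is low at muscle sums from 14.5 to 736 CPM.

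Of the other 8 carbonic anhydrase genes looked up, Car1, Car7 and Car11 were among the genes measured, and all 3 fell in KO tissue after isoproterenol, where 24.8% of all genes were called lower. Car1, an isoform of red cells and gut, was at 0.0714, 2.38, 0.287 and 0.576 CPM in KO isoproterenol libraries, against 2.16, 3.46, 1.78 and 2.81 CPM in KO saline libraries (log2 difference -2.59, limma adjusted p = 0.00924). Replicate 2 lay within the KO saline range. Car7, a cytosolic isoform, averaged 5.14 ± 1.35 CPM in KO isoproterenol and 11.2 ± 1.42 CPM in KO saline libraries (SD, n = 4 each), a log2 difference of -1.15 (limma adjusted p = 2.38e-04). Car11, a secreted relative without enzyme activity, averaged 3.30 ± 1.12 CPM in KO isoproterenol and 9.81 ± 2.89 CPM in KO saline libraries (SD, n = 4 each), a log2 difference of -1.61 (limma adjusted p = 3.34e-04). In WT tissue none of these 3 passed in limma, and Car1 alone had an unadjusted p under 0.05. Car1 there averaged 0.890 ± 0.511 CPM with isoproterenol and 2.76 ± 0.491 CPM with saline (SD, n = 4 each). These WT groups did not overlap, as for 32.9% of all genes. Car1 was called lower in WT tissue when KO isoproterenol replicate 1 was left out. In the fit of the 8 KO libraries alone, Car1 was not called.

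Among genes that use or move the products of these enzymes, all 8 enzyme genes that consume bicarbonate (biotin-dependent carboxylases and Cad, of pyrimidine synthesis) fell in KO tissue after isoproterenol, where 24.8% of all genes were called lower, and 7 fell without KO isoproterenol replicate 1. In WT tissue 0 passed in limma and 1 had an unadjusted p under 0.05, with 1 higher and 1 lower called when that library was left out. Pccb, a subunit of mitochondrial propionyl-CoA carboxylase, averaged 144 ± 105 CPM in KO isoproterenol and 805 ± 47.7 CPM in KO saline libraries (SD, n = 4 each), a log2 difference of -2.83 (limma adjusted p = 7.09e-05). Its partner subunit gene Pcca had a log2 difference of -2.38 (limma adjusted p = 3.92e-04). The median of the 8 was -1.84 in KO and 0.33 in WT tissue. Of 8 bicarbonate transporters measured, 2 were called in KO tissue, where 48.6% of all genes were called in either direction. The anion exchanger gene Slc4a2 rose by 0.71 and the sulfate and anion transporter gene Slc26a2 fell by 0.75 (limma adjusted p = 7.91e-05 and 0.0335). In WT tissue 3 were called, where 16.6% of all genes were called in either direction. There Slc4a2 rose by 0.49, the sodium-bicarbonate cotransporter gene Slc4a7 fell by 0.76 and Slc26a2 fell by 1.12 (limma adjusted p = 0.00536, 0.0128 and 0.0124). With library totals Slc4a3 joined Slc4a2 and Slc26a2 lost its call in KO tissue, and Slc4a2 lost its call in WT tissue. The KO call of Slc26a2 was also lost without KO isoproterenol replicate 2, 3 or 4 or KO saline replicate 1 or 3, and in the fit of the 8 KO libraries.

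Of 10 genes that export protons or lactate, 4 rose and 1 fell in KO tissue after isoproterenol, a share near the 48.6% of all genes called there, and 4 fell when KO isoproterenol replicate 4 was left out. Emb, the partner protein of monocarboxylate transporters, rose by 2.90 and the lactate exporter gene Slc16a3 by 2.32 (limma adjusted p = 1.58e-04 and 0.0118), the sodium-proton exchanger gene Slc9a9 rose by 1.39 and Slc9a5 by 0.69, and the monocarboxylate transporter gene Slc16a7 fell by 2.20 (limma adjusted p = 1.35e-04). The call of Slc9a5 was lost without KO isoproterenol replicate 1 or 2 or KO saline replicate 1, and in the fit of the 8 KO libraries. In WT tissue Emb rose by 2.11 and Slc16a7 fell by 1.11, and the call of Slc16a7 was lost whichever WT library was left out, and with the replicate block. Of 17 hypoxia-induced genes measured beside Car9, 7 rose and 7 fell in KO tissue, where 23.8% of all genes were called higher and 24.8% lower. The counts were 9 and 6 with library totals, 6 and 6 without KO isoproterenol replicate 1, and 4 and 3 in the fit of the 8 KO libraries. Ddit4, an inhibitor of mTORC1 signalling, rose by 1.93 and the glucose transporter gene Slc2a1 by 1.79 (limma adjusted p = 0.00186 and 6.39e-06), while the angiogenic factor gene Vegfa fell by 2.08 and the kinase gene Pdk1 by 1.94 (limma adjusted p = 0.00146 and 4.84e-05). The direction of Car9 in KO tissue was thus that of 7 of these genes and opposite to that of the other 7. In WT tissue 3 were called higher and 1 lower, where 7.6% and 8.98% of all genes were, and Ldha, the lactate dehydrogenase A gene, which rose by 1.41 (limma adjusted p = 0.00151), was the only one of the 4 called under every alternative run.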

How the data were processed

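The 16 libraries were made with a kit that marks strand and sequenced as 75 bp single reads, per the labels. The deposited values are log2 CPM per Ensembl gene; the submitters' processing notes name STAR, limma and mm39, without versions; the sources used here do not give the counter or its strand setting. Each value, as a power of 2, equals whole reads plus 0.5 times a constant of its library (tolerance 1e-05, 100% of values), which gave the reads and library totals. The authors' constants equal 0.854 to 1.25 times the totals. Groups were taken from the genotype and treatment characteristics, since the treatment text of saline samples describes isoproterenol, and replicate numbers from the titles, which differ from the column headers in 3 KO saline files.

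All 15350 deposited genes entered 1 limma 3.58.1 model (R 4.3.3) of 4 group means on the log2 values, with trended, robust moderation, 12 residual degrees of freedom and Benjamini-Hochberg adjustment over all genes; calls are at an adjusted p under 0.05. The procedure was tested on simulated data. The members, lists and named genes (of lists with over 5 calls, the largest 2 each way) were chosen with earlier results of these data known. Symbols (15320 of 15350 genes) and exon lengths came from GENCODE M21. Whether the replicate numbers pair libraries was not settled. Deviations of same-numbered isoproterenol and saline libraries correlated at 0.210 to 0.535 in WT and 0.0329 to 0.239 in KO tissue. Same-numbered KO and WT libraries correlated at -0.246 to 0.218 with isoproterenol and -0.431 to 0.0254 with saline. Differently numbered libraries were not compared. Counting error limits low genes: 3 reads are 0.143 to 0.345 CPM.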

Additional observations from a re-analysis of the deposited data

Results flagged for a closer look

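In 3 of the 32 groups of 4 libraries examined (8 members in 4 groups), 1 library lay far from the other 3, where chance gives about 1 in 20. Car14 was at 40.1 CPM in WT saline replicate 2, against 20.05 to 23.1 CPM in the other WT saline libraries. Car3 was at 14642 CPM in KO saline replicate 2, against 7945 to 8532 CPM in the other KO saline libraries. Car8 was at 12.8 CPM in WT isoproterenol replicate 4, against 8.51 to 9.14 CPM in the other WT isoproterenol libraries.

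The response to isoproterenol differed between genotypes for 4 of the 7 members tested, where 24.7% of all genes passed. Car14, whose response chose the set, is not among them. Car14 moved in opposite directions, and the KO response minus the WT response was -7.37 on the log2 scale; this difference was not tested. By the interaction term of limma, the KO response minus the WT response was -1.82 for Car2, -2.33 for Car3, -2.08 for Car8 and 2.75 for Car9, with adjusted p of 0.0132, 0.0112, 9.05e-04 and 0.0151.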

How the results depend on the processing

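Over the alternatives run (8-library fits, replicate block, library totals, voom weights, a mean of at least 1 CPM, a prior of 2 reads, no trend, muscle covariate, each library left out), 115 counts of called members stayed within 1.5 times their value. The 6 that did not were all of the WT response: 1 or 0 members without single WT libraries, so 0 to 2 over the libraries left out. Of the single-member values, 932 kept direction and call, 11 lost and 5 gained it, and 15 changed sign, all of them uncalled. The 932 include the untested Car14 values, which have no call. Those kept direction and moved by less than the residual SD of the gene. With library totals Car5b in KO was 0.17; over libraries left out it ran from -0.36 to 0.24, Car13 in KO from -0.023 to 0.22 and Car9 in WT from -0.60 to 0.023. Under isoproterenol the KO minus WT value of Car5b ran from -0.16 to 0.44, and its interaction from -0.065 to 0.54. Under saline Car14 ran from -0.082 to 0.31, Car5b from -0.32 to 0.067 and Car8 from -0.044 to 0.22. The causes were not tested.

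The replicate block left the members called at 4 in KO, 2 in WT, 4 for KO minus WT under isoproterenol, 0 under saline and 4 for the interaction, and a block within WT libraries alone, chosen after seeing the data, left 2 and 4 and changed no other member's call; it called 1865 genes in WT. Library totals shifted the median of all genes to 0.18 in KO, -0.13 in WT, 0.27 for KO minus WT under isoproterenol and 0.34 for the interaction, so changes near these sizes depend on scaling; in KO 4493 genes were then higher and 2939 lower, against 3647 and 3813, in WT 770 and 1748, against 1167 and 1379, and under isoproterenol 5030 and 2527, against 3311 and 3542, and for the interaction 2895 and 1477, against 1674 and 2113. Fits of 8 libraries called 4923 genes in WT, against 2546, and 50 under saline, against 15. WT calls ran from 1623 (without WT saline replicate 2) to 3640 over the libraries left out, with 1672 without WT saline replicate 3, and saline calls from 4 to 37. Car9, at a mean of 0.927 CPM, has no value under the minimum of 1 CPM. Car14 in KO isoproterenol (3 to 12 reads) and Car9 under saline (2 to 10 reads) are limited by depth.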
